A study of Mus musculus with 6 samples.

Results

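Expression was followed for 10 genes of lipid handling: Apoe, Abca1, Abcg1, Pltp and Nr1h3, which serve the export of cholesterol from the cell, Lpl, Fabp4 and Fabp5, which handle fatty acids, and Gpnmb and Cd9, which are used as markers of lipid-associated macrophages. They were chosen by gene symbol from the deposited count table, and all 10 had a row among its 54532 genes. Any count at all was found for 27687 genes, and 14522 genes entered the test, the 10 among them. The 6 RNA-seq libraries were made from Ly6G- CD11b+ cells, labelled cardiac macrophages, sorted magnetically from the hearts of C57BL/6 mice aged 12 weeks. All mice carried an infarct, made by tying off the left anterior descending artery for good, and cells were taken 7 days later. Of the libraries, 3 came from ITGA5 fl/fl control littermates, in which both copies of Itga5, the gene of the integrin α5 chain, carry sites for Cre recombinase and no Cre is present (below, the controls). The other 3 libraries came from Myα5KO mice, which carry the same alleles together with Cre driven by the LyzM promoter. LyzM-Cre is not limited to macrophages, since monocytes and neutrophils are targeted too. Hearts were digested singly per the study's methods, but nothing in the labels ties a library to an animal, so the p-values measure the spread between these libraries.

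Macrophages that clear dead cells take up large amounts of cholesterol and fatty acids. Cholesterol leaves the cell through the membrane transporters ABCA1, which loads lipid-poor apolipoproteins, and ABCG1, which loads HDL particles, while apolipoprotein E is itself secreted by macrophages and accepts cholesterol. The liver X receptors sense oxidized sterols, and Abca1, Abcg1, Apoe and Pltp are textbook targets of these receptors in macrophages. Cells named lipid-associated macrophages, described in adipose tissue and other lipid-loaded or injured tissue, carry Trem2, Gpnmb, Cd9, Spp1, Fabp4, Fabp5 and Lpl at high levels.

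Library totals ranged from 15424451 to 18419287 counts. Itga5, the targeted gene, had 653, 568 and 600 CPM (counts per 1000000 counts of the tested genes, scaled with the TMM factors of edgeR) in the controls and 49.99, 48.96 and 47.1 CPM in Myα5KO, so that 8.02% of the control level remained and every library matched its label (log2 fold change -3.64, SE 0.08, adjusted p = 4.42e-12, edgeR). All 8 macrophage markers were present, and their summed level was 10390 to 10510 CPM in the controls and 9846 to 10340 CPM in Myα5KO. Other cells left traces: summed fibroblast markers were 1739 ± 144 CPM (SD, n = 3) in the controls and 1405 ± 185 CPM in Myα5KO, summed monocyte markers 1345 ± 78.7 and 1829 ± 154 CPM, and summed neutrophil markers 200.1 ± 24.9 and 310.3 ± 63.1 CPM, each with groups that did not overlap (exact permutation p = 0.1, the smallest that 3 against 3 libraries allow, adjusted p = 0.171 over 12 lists). Of the tested markers, edgeR called 1 of 8 fibroblast genes lower, 4 of 6 monocyte genes higher and 7 of 8 neutrophil genes higher, while Ly6g itself was at or near 0 in every library. Most of the monocyte sum was Nr4a1 alone, at 1031 ± 75.8 CPM in the controls and 1376 ± 137 CPM in Myα5KO. Most of the neutrophil sum was Csf3r, at 155 ± 16.6 and 169 ± 12.3 CPM, which was not called and had overlapping groups. Summed levels of resident cardiac macrophage markers (397 ± 50.8 and 457 ± 66.5 CPM), dendritic cell markers (100.3 ± 13.6 and 104 ± 4.57 CPM) and B cell markers (79.9 ± 17.8 and 118 ± 27.3 CPM) overlapped between the groups, and T and NK cell markers were low (4.63 ± 0.607 and 7.11 ± 0.803 CPM). Within a group, libraries differed more than counting error, with a chi-square per degree of freedom of 5.15 to 13.3, and both pairs that held Myα5KO replicate 3 had the highest values, 13.3 and 9.

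Of the 10 genes, 2 rose in Myα5KO macrophages, Abcg1 and Nr1h3, and 1 fell, Abca1 (edgeR quasi-likelihood test, Benjamini-Hochberg adjusted p of 0.05 or less over all 14522 genes tested). Over all genes tested, 3.56% were called higher (517) and 5.19% lower (754), a split that turned to 1212 higher and 518 lower with libraries scaled by their totals alone. With 10 genes, the calls describe the individual genes rather than the list. The median log2 fold change of the 10 genes was 0.06, against 0.01 over all genes tested, with 6 genes above 0 and 4 below, of which Fabp5 crossed 0 under library-size scaling. The libraries of both groups did not overlap for 4 of the 10 genes, Apoe and Abca1 with lower and Abcg1 and Nr1h3 with higher values in Myα5KO, which is close to the 28.6% of all tested genes with groups apart. In these bulk libraries, fewer cells of a type and less RNA per cell cannot be told apart.

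**Figure D1:**
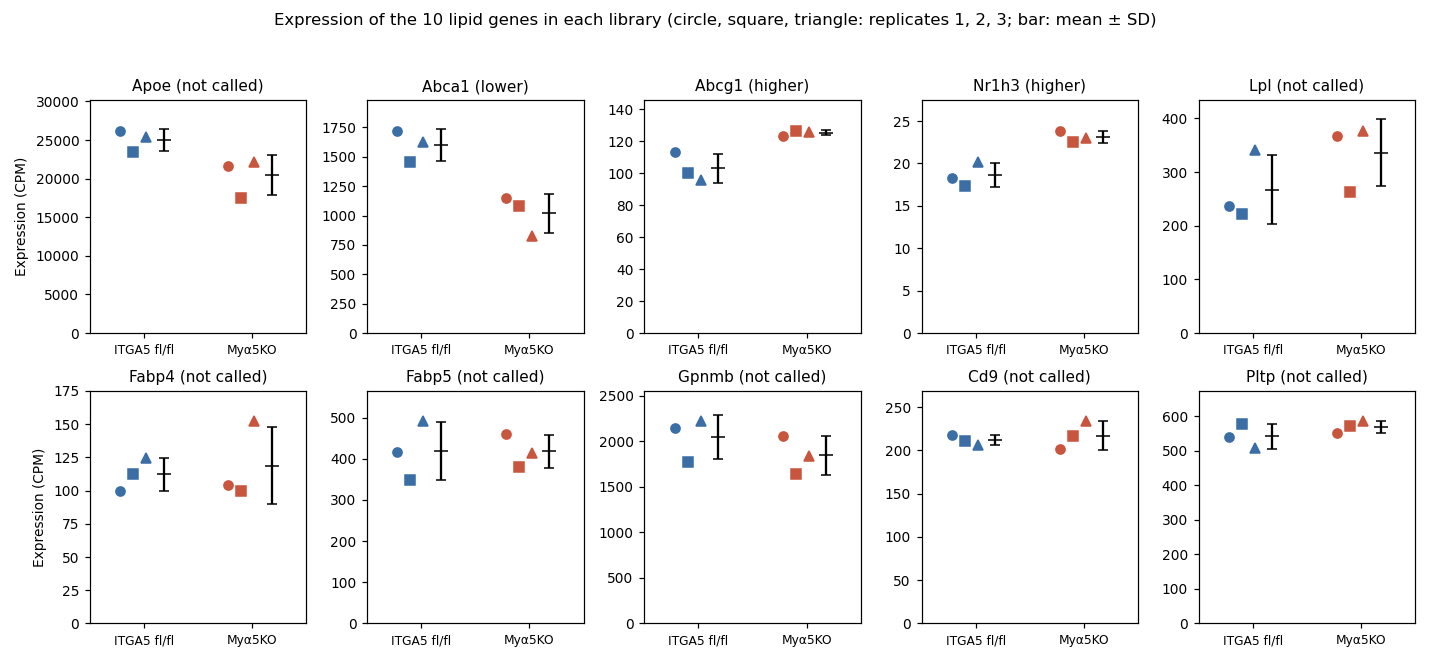
Expression of each of the 10 genes in CPM (linear axis from 0, 1 panel a gene) in the 3 ITGA5 fl/fl libraries (blue) and the 3 Myα5KO libraries (red), with symbols for replicates 1 to 3 and black bars for mean ± SD. Abca1 lies at 1458 to 1721 CPM in the control libraries and 827 to 1148 CPM in Myα5KO, while the groups overlap for Lpl, Fabp4, Fabp5, Gpnmb, Cd9 and Pltp.

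Abca1, the transporter for the first step of cholesterol loading onto apolipoprotein A-I, fell in Myα5KO macrophages (ENSMUSG00000015243, GRCm38 chromosome 4, 53030787 to 53159895, minus strand, protein coding). It had 1721, 1458 and 1625 CPM in the controls, from 25677, 24818 and 28549 counts, and 1148, 1078 and 827 CPM in Myα5KO, from 21569, 20145 and 15726 counts. Every Myα5KO library was below every control library, and Myα5KO replicate 3 was the lowest. The mean went from 1601 ± 133 to 1018 ± 169 CPM (SD, n = 3 each), so that 63.6% of the control level remained (log2 fold change -0.65, SE 0.11, 95% interval -0.89 to -0.42, adjusted p = 0.00291, edgeR). Of the 10 genes Abca1 had the smallest p, at place 192 among all genes tested. It stayed called with any library left out, at -0.75 to -0.52, and without Myα5KO replicate 3, the library that stood furthest from its group, it was at -0.52 (adjusted p = 0.00226, edgeR). Over all 16 alternatives its adjusted p went from 1.78e-15 to 0.146, with 15 of them at or below the threshold. Summed fibroblast markers were also lower, and monocyte and neutrophil markers higher, in the Myα5KO libraries, and their part in the difference of Abca1 was not tested. Abca1 is a long transcript of 10363 bases, and in Myα5KO replicate 3 genes of 8000 bases or more lay at a median of -0.05 on the log2 scale from the mean of all libraries. In Myα5KO replicates 1 and 2 the median of such genes was 0.05 and 0.0056. Of these long genes 7.27% were called lower, against 5.19% of all genes tested. With a correction for gene length, chosen after the data were seen, its log2 fold change was -0.66 (adjusted p = 0.00085, edgeR), and of the 2284 tested genes of that length 1.97% had a log2 fold change as low as that of Abca1.

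The 250 bases before the RefSeq start of Abca1 and before the most upstream of several RefSeq starts of Apoe are shown (build GRCm38.p6, both minus strand, chr4:53159896-53160145 and chr7:19699189-19699438). These members were chosen because they had groups apart in the lower direction and both are textbook liver X receptor targets. Capitals mark matches to the letters searched on both strands: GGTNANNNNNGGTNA, a pair of nuclear receptor sites 4 bases apart, CACGTG, the E-box, and TGANTCA, the AP-1 site.
Abca1: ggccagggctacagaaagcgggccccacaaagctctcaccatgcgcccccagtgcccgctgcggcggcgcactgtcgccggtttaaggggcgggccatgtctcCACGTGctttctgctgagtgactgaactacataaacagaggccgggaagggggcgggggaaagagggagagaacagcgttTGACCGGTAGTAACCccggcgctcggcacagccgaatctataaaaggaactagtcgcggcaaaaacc
Apoe: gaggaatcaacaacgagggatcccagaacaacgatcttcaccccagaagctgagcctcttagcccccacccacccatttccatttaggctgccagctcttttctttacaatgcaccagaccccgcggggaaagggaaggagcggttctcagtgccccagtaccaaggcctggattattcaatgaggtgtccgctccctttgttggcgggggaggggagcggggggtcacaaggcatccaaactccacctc
The Abca1 stretch held the receptor pair on its reverse strand, from 67 to 53 bases before the start, and an E-box from 147 to 142 bases before it, with no overlap between them. Over 32851 such windows of 27025 genes, 0.621% held the receptor pair, 6.02% the E-box and 6.75% the AP-1 letters. The searched letters were chosen after the Abca1 stretch had been seen. In all, 6 of the 10 genes had a window in the table, with 9 windows between them, and none of the windows of Apoe, Nr1h3, Gpnmb, Cd9 and Pltp held any of these letters within 250 bases, which says nothing of sites elsewhere. Abcg1, Lpl, Fabp4 and Fabp5 were without a window.

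Abcg1, the transporter that passes cholesterol to HDL, rose in Myα5KO macrophages (ENSMUSG00000024030, chromosome 17, 31057698 to 31115777, plus strand, deposited coordinates that differ from GENCODE M21). It had 113.0, 100.2 and 95.6 CPM in the controls and 123.3, 126.4 and 126.0 CPM in Myα5KO. The Myα5KO libraries lay within 1.03-fold of each other, and all were above the highest control library. That spread, a coefficient of variation of 1.34%, was no wider than the counting error of 2.06% at a mean of 2359 counts. Mean expression went from 103 ± 9.02 to 125 ± 1.67 CPM (SD, n = 3 each), or 122% of the control level (log2 fold change 0.28, SE 0.07, 95% interval 0.13 to 0.44, adjusted p = 0.0247, edgeR). The direction was the same in all 16 alternatives, but the call was lost when ITGA5 fl/fl replicate 2, ITGA5 fl/fl replicate 3 or Myα5KO replicate 2 was left out (log2 fold changes 0.26, 0.23 and 0.27, adjusted p = 0.109, 0.12 and 0.0851, edgeR) and on the deposited FPKM values (adjusted p = 0.0748, limma), with adjusted p from 0.00358 to 0.17 over the 16. Summed monocyte and neutrophil markers were also higher in the Myα5KO libraries, and their part in the difference of Abcg1 was not tested.

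The ratio of Abca1 to Abcg1 counts within a library does not depend on how libraries are scaled. It was 15.2, 14.6 and 17.0 in the controls and 9.31, 8.53 and 6.56 in Myα5KO. All 3 Myα5KO ratios were below the lowest control ratio. This had to be so, because the groups of Abca1 and Abcg1 already lay apart in opposite directions. The separation and its permutation p are therefore no further result. Its mean went from 15.6 ± 1.26 to 8.13 ± 1.41 (SD, n = 3 each), a difference of -0.95 in log2 ratio (exact two-sided permutation p = 0.1, the smallest possible with 3 against 3, adjusted p = 0.2 over 2 ratios).

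**Figure D2:**
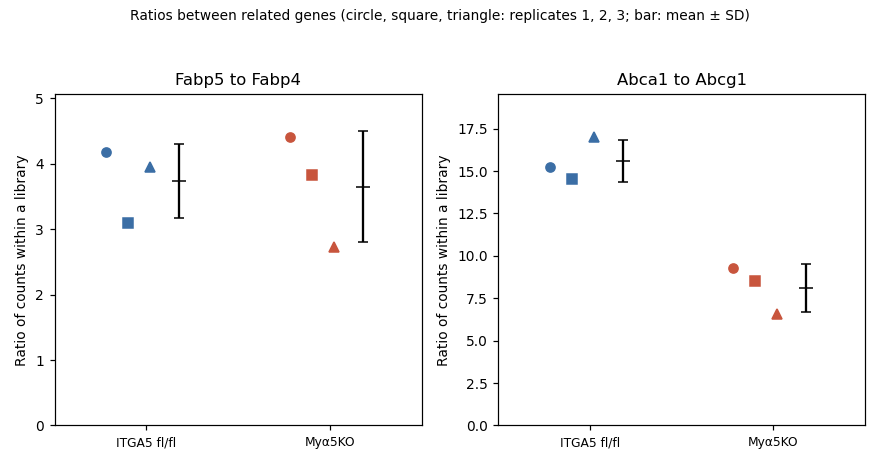
Ratios of counts within each library (linear axis from 0), Fabp5 to Fabp4 on the left and Abca1 to Abcg1 on the right, for ITGA5 fl/fl (blue) and Myα5KO (red) libraries, with symbols for replicates 1 to 3 and bars for mean ± SD. The Abca1 to Abcg1 ratio lies at 14.6 to 17.0 in the controls and 6.56 to 9.31 in Myα5KO, and the Fabp5 to Fabp4 ratio overlaps between the groups.

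Nr1h3, the gene of liver X receptor α, had the lowest level per length of the 10 genes and rose at the edge of the threshold (ENSMUSG00000002108, chromosome 2, 91184061 to 91202834, minus strand). The controls held 273, 296 and 354 counts, or 18.3, 17.4 and 20.1 CPM, and the Myα5KO libraries 448, 420 and 438 counts, or 23.8, 22.5 and 23.0 CPM. Every Myα5KO library was above every control library. The mean went from 18.6 ± 1.41 to 23.1 ± 0.692 CPM (SD, n = 3 each; log2 fold change 0.31, SE 0.09, 95% interval 0.12 to 0.51, adjusted p = 0.0492, edgeR). It was called in only 2 of 16 alternatives and in none of the 6 with a library left out (0.26 to 0.37, adjusted p from 0.0606 to 0.186, edgeR), and DESeq2 gave an adjusted p of 0.103, within a range of 0.0152 to 0.186. As for Abcg1, the part of the higher monocyte and neutrophil markers in the difference of Nr1h3 was not tested. Nr1h2, the gene of the other liver X receptor, named here after its values were seen, was at 103 ± 1.66 CPM in the controls and 96.6 ± 2.19 CPM in Myα5KO, with groups apart (log2 fold change -0.09, adjusted p = 0.383, edgeR).

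Apoe, the apolipoprotein that macrophages secrete, was the most abundant gene of all by level per length, and its change did not pass the test (ENSMUSG00000002985, chromosome 7, 19696109 to 19699188, minus strand). It had 26199, 23428 and 25432 CPM in the controls and 21662, 17453 and 22207 CPM in Myα5KO. The groups did not overlap, with Myα5KO replicate 2 the lowest. Apoe took 2.29% to 2.53% of all counts in the control libraries and 1.78% to 2.29% in the Myα5KO libraries. Mean expression was 25020 ± 1431 CPM and 20441 ± 2602 CPM (SD, n = 3 each), and the Myα5KO mean was 81.7% of the control mean (log2 fold change -0.29, SE 0.10, 95% interval -0.51 to -0.07, unadjusted p = 0.0141, adjusted p = 0.104, edgeR). Its adjusted p went from 0.005 to 0.722 over the 16 alternatives, and 3 of them called it lower: DESeq2 (0.011), no count filter (0.005) and without Myα5KO replicate 3 (0.0422). The fit with no count filter did not use each gene's own spread between libraries.

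Pltp, the gene of phospholipid transfer protein, had 539, 578.5 and 508 CPM in the controls and 551, 573 and 586 CPM in Myα5KO (ENSMUSG00000017754, chromosome 2, 164839518 to 164857711, minus strand). The groups overlapped (542 ± 35.3 against 570.0 ± 18.0 CPM, log2 fold change 0.07, 95% interval -0.08 to 0.22, adjusted p = 0.586, edgeR). Its value is uncertain, because 10.8% of its 50-base words also occur in Ctsa and 495 of its exon bases are shared with this lysosomal gene on the opposite strand, which had a mean of 20531 counts per library, and whether the counting used strand was not stated.

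The fatty acid genes did not pass the test. Lpl, the secreted enzyme that splits triglycerides (ENSMUSG00000015568, chromosome 8, 68880491 to 68907448, plus strand), had 238, 222 and 341 CPM in the controls and 368, 264 and 377 CPM in Myα5KO. The groups overlapped, since ITGA5 fl/fl replicate 3 was above Myα5KO replicate 2. Its log2 fold change was 0.33 (SE 0.15, 95% interval 0.01 to 0.66, unadjusted p = 0.0464, adjusted p = 0.207, edgeR), and without ITGA5 fl/fl replicate 3 it was 0.55 and called higher (adjusted p = 0.037, over a range of 0.00025 to 0.594 across alternatives). The lowest of these came from the fit with no count filter, which did not use the spread of Lpl itself. Fabp4, a carrier of fatty acids in macrophages, adipocytes and capillary endothelium (ENSMUSG00000062515, chromosome 3, 10204088 to 10208576, minus strand), had 99.5, 113 and 125 CPM in the controls and 105, 99.4 and 152 CPM in Myα5KO. Only Myα5KO replicate 3 stood above the control range (log2 fold change 0.08, 95% interval -0.21 to 0.37, adjusted p = 0.771, edgeR). Fabp5, the related carrier on the same chromosome (ENSMUSG00000027533, 10012548 to 10016607, plus strand), had 416, 349 and 492 CPM in the controls and 460.3, 380 and 415 CPM in Myα5KO. Its groups overlapped, and the interval of its log2 fold change ran from -0.23 to 0.23 (adjusted p = 0.995, edgeR). For Fabp5, 5.48% of the 50-base words of its transcripts also occur in other annotated genes, Fabp5l2 among them. The ratio of Fabp5 to Fabp4 counts was 3.74 ± 0.567 in the controls and 3.65 ± 0.851 in Myα5KO (SD, n = 3 each; exact permutation p = 0.8).

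Fabp4 and Lpl are also expressed by other cells of the heart, whose markers were summed in the same libraries. Adipocyte markers were near 0, with a sum of 2.77 ± 0.578 CPM in the controls and 0.727 ± 0.256 CPM in Myα5KO, and Lep was at 0 throughout. The summed level of 10 endothelial markers was 433 ± 28.6 and 446 ± 27.9 CPM (exact permutation p = 0.7), with groups that overlapped. Summed cardiomyocyte markers were 21.8 ± 1.34 and 15.6 ± 2.43 CPM (exact permutation p = 0.1).

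The markers of lipid-associated macrophages did not pass the test either. Gpnmb, a transmembrane glycoprotein of lysosome-rich macrophages (ENSMUSG00000029816, chromosome 6, 49036546 to 49070929, plus strand), had 2144, 1772 and 2220 CPM in the controls and 2055, 1636 and 1843 CPM in Myα5KO. The groups overlapped, and replicate 2 was the lowest in each (log2 fold change -0.15, 95% interval -0.37 to 0.07, adjusted p = 0.409, edgeR). Cd9, a tetraspanin of the cell surface (ENSMUSG00000030342, chromosome 6, 125460266 to 125494791, minus strand), had 218, 211 and 206 CPM in the controls and 201, 217 and 234 CPM in Myα5KO. Those groups overlapped too, and the interval of the log2 fold change ran from -0.11 to 0.19 (adjusted p = 0.794, edgeR). The value of Cd9 is uncertain in part, since 14.4% of its 50-base words occur in 173 other annotated genes and 3.65% of its 150-base words in Gm26728. Genes on the opposite strand overlap Cd9, but Gm28809, the longest overlap, held a mean of only 27 counts. Summed platelet markers, which stand beside Cd9 as a gene that platelets also carry, were 278 ± 64.1 and 240.4 ± 13.4 CPM (exact permutation p = 0.5).

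**Figure D3:**
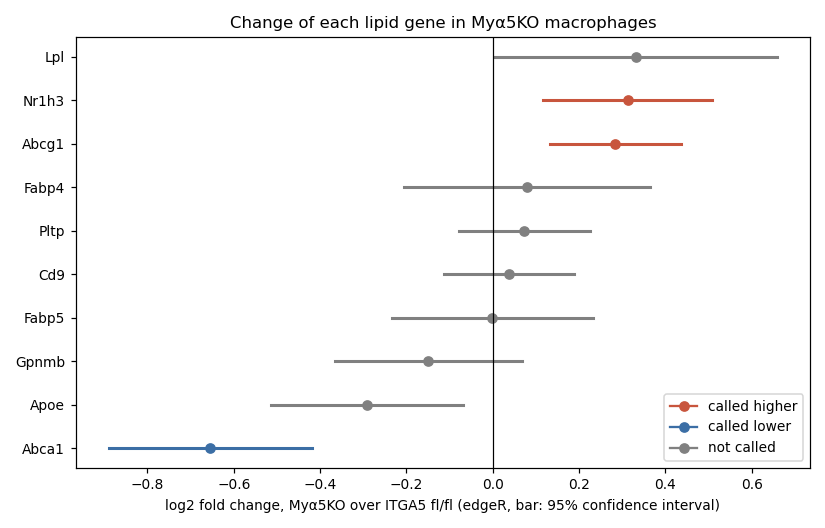
The log2 fold change of each of the 10 genes (points, edgeR, Myα5KO over ITGA5 fl/fl) with its 95% confidence interval (bars), ordered by size and coloured by call. Abca1 at -0.65 is called lower, Abcg1 at 0.28 and Nr1h3 at 0.31 are called higher, and Lpl at 0.33 has the highest value but a wide interval that nearly reaches 0.

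The 10 genes also differed in how far libraries of a group spread. In ITGA5 fl/fl the coefficient of variation of CPM ran from 2.72% for Cd9 to 24.2% for Lpl, and in Myα5KO from 1.34% for Abcg1 to 24.5% for Fabp4. The same library was often low for several genes: ITGA5 fl/fl replicate 2 was the lowest control library for 6 of the 10 genes, Apoe, Abca1, Nr1h3, Lpl, Fabp5 and Gpnmb. Myα5KO replicate 2 was the lowest of its group for 6 genes, Apoe, Nr1h3, Lpl, Fabp4, Fabp5 and Gpnmb. Myα5KO replicate 3 was the lowest of its group only for Abca1 and the highest for 5 genes, Apoe, Lpl, Fabp4, Cd9 and Pltp.

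Levels between genes were compared per length, on the deposited FPKM values. In ITGA5 fl/fl libraries the order was Apoe at 11653 ± 704 FPKM, Gpnmb at 313 ± 37.7, Pltp at 211 ± 13.1, Abca1 at 154 ± 13.3, Fabp5 at 117 ± 20.2, Cd9 at 103 ± 2.89, Lpl at 25.4 ± 6.20, Abcg1 at 25.2 ± 2.24, Fabp4 at 24.9 ± 2.78 and Nr1h3 at 7.37 ± 0.574 FPKM (SD, n = 3). Neighbours whose libraries overlapped were Fabp5 and Cd9, Lpl and Abcg1, and Abcg1 and Fabp4. In Myα5KO libraries Abca1, at 97.5 ± 16.9 FPKM, went from the fourth to the sixth place, behind Fabp5 at 116 ± 11.5 and Cd9 at 105 ± 7.13 FPKM, and its libraries overlapped with those of both. The other 7 genes kept their places, from Apoe at 9482 ± 1169 FPKM to Nr1h3 at 9.12 ± 0.297 FPKM. The place of Abcg1 rests on the deposited length of 4066 bases. The same counts over all its annotated exon bases in GENCODE M21, 7298, give a control mean of 14.0 FPKM, below Fabp4. Any reads in exon bases outside the deposited gene model would not be in these counts, so its level on the M21 model is not known.

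**Figure D4:**
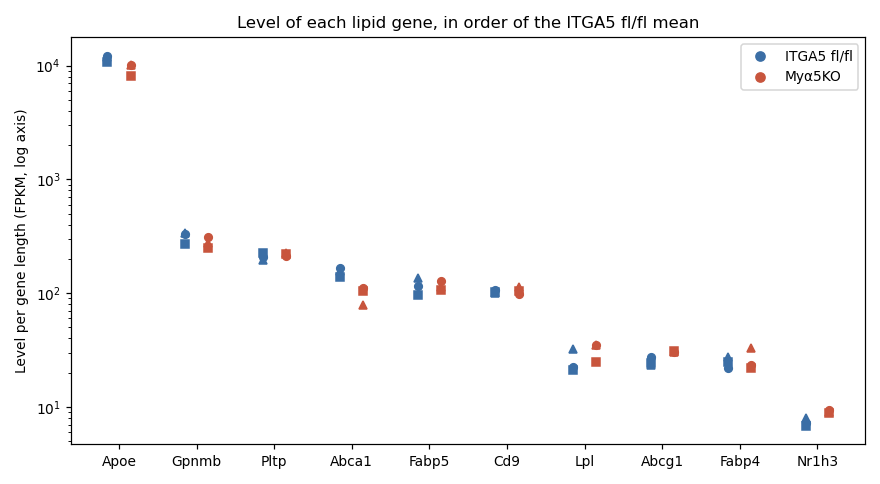
Level of each of the 10 genes per gene length (FPKM, log axis) in every ITGA5 fl/fl (blue) and Myα5KO (red) library, with symbols for replicates 1 to 3, ordered by the control mean. Apoe at 8133 to 12227 FPKM stands far above Gpnmb, the next gene, and the Myα5KO libraries of Abca1 overlap with those of Fabp5 and Cd9.

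Further lists of genes set the 10 genes in their pathways. Of 17 further genes of sterol efflux and liver X receptor signalling, 16 were tested and none was called by edgeR or by DESeq2, while 5 had an unadjusted p under 0.05 in edgeR, 2 in the higher and 3 in the lower direction. Over all genes tested 23.1% had such a p, so this count is near the background. The list median was -0.06, with values from -0.61 to 0.22, against 0.01 for all genes tested. Npc2, a lysosomal cholesterol carrier, was at 1140 ± 22.5 CPM in the controls and 1078 ± 33.0 CPM in Myα5KO. Arl4c, a liver X receptor target that aids transport to the membrane, was at 630.2 ± 30.0 and 551 ± 58.7 CPM (log2 fold change -0.19, adjusted p = 0.176, edgeR). Lipa, the lysosomal acid lipase, was at 531 ± 16.8 and 536 ± 36.2 CPM. Scarb1, the HDL receptor, named after its values were seen, was at 87.7 ± 4.32 and 101 ± 2.56 CPM with groups apart in the higher direction (log2 fold change 0.21, adjusted p = 0.0635, edgeR). Npc2 and Arl4c had groups apart as well, in the lower direction.

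Of 24 further genes of fatty acid uptake and storage, 1 rose and 3 fell, and the list median was 0.01. These are 4.17% higher and 12.5% lower, against 3.56% and 5.19% over all genes tested. In edgeR 9 of the 24 had an unadjusted p under 0.05, 4 in the higher and 5 in the lower direction. That is 37.5%, against 23.1% over all genes tested. Hilpda, a hypoxia-inducible lipid droplet protein that inhibits lipolysis, had 284, 316 and 351 CPM in the controls and 176, 192 and 193 CPM in Myα5KO. Every Myα5KO library was far below the lowest control library (log2 fold change -0.76, SE 0.08, adjusted p = 0.00016, edgeR), and it stayed called with any library left out (-0.83 to -0.68). Ppard, a nuclear receptor for fatty acids, fell from 126 ± 7.998 to 86.5 ± 14.9 CPM (log2 fold change -0.54, SE 0.10, adjusted p = 0.00578, edgeR), and it was called in 13 of 16 alternatives but in none of the 3 fits on FPKM (adjusted p = 0.0635, 0.0651 and 0.173, limma, the last being the highest and 3.76e-10 the lowest over all 16). Dgat1, an enzyme that makes triglycerides, fell from 187 ± 8.99 to 147 ± 11.5 CPM (-0.35, SE 0.07, adjusted p = 0.00985, edgeR), and without ITGA5 fl/fl replicate 2 it was at -0.32 and not called (adjusted p = 0.0547, within 0.00024 to 0.124 over its alternatives). Mgll, the lipase for monoglycerides, rose from 16.1 ± 1.25 to 21.3 ± 2.29 CPM (0.40, SE 0.11, adjusted p = 0.0309, edgeR), and the call was lost with any of 4 libraries left out, ITGA5 fl/fl replicate 1 or 3 or Myα5KO replicate 2 or 3 (0.31 to 0.42, adjusted p from 0.065 to 0.123, within 0.00492 to 0.2 over all alternatives). Lrp1, an endocytic receptor for Apoe particles, was at 2559 ± 173 and 2270.5 ± 464 CPM, Plin2, the main coat protein of lipid droplets, at 1004 ± 65.7 and 1041 ± 78.4 CPM, and Cd36, a fatty acid and oxidized LDL receptor, at 420.4 ± 63.1 and 371 ± 29.2 CPM. None of these 3 passed the test, and their groups overlapped. Pparg, named after its values were seen, was at 25.0 ± 1.73 and 29.7 ± 1.74 CPM (log2 fold change 0.25, adjusted p = 0.0938, edgeR).

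Of 24 further genes of the lipid-associated macrophage programme, 1 rose and none fell by edgeR or DESeq2, with 3 genes higher and 4 lower at an unadjusted p under 0.05. Both counts are near the background over all genes tested, of which 3.56% were called higher and 23.1% had an unadjusted p under 0.05. The values were small, with a median of -0.04 and a range from -0.30 to 0.38. Tfeb, a master regulator of lysosomal genes, rose from 34.2 ± 1.54 to 42.5 ± 4.59 CPM (log2 fold change 0.32, SE 0.09, adjusted p = 0.0371, edgeR), and it was not called with any control library or Myα5KO replicate 3 left out (0.22 to 0.34, adjusted p from 0.0799 to 0.109, within 0.00712 to 0.221 over all alternatives). Trem2, the lipid-sensing receptor of these cells, named after its values were seen, had 506, 467 and 546 CPM in the controls and 445, 504 and 553 CPM in Myα5KO. Its groups overlapped, and the interval of the log2 fold change was -0.20 to 0.17. Spp1, the gene of osteopontin, was at 2548 ± 518 and 2728 ± 405 CPM, and the lysosomal proteases Ctsb and Ctsd were at 10291 ± 525 and 9968 ± 181 CPM and at 3800.2 ± 224 and 3798 ± 9.27 CPM.

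**Figure D5:**
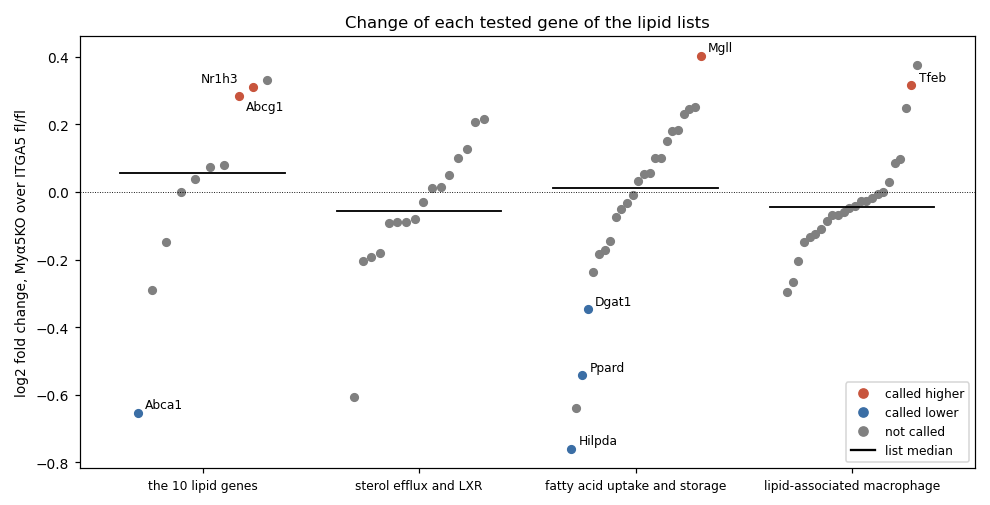
The log2 fold change (Myα5KO over ITGA5 fl/fl, edgeR) of every tested gene among the 10 genes and in the lists of sterol efflux and liver X receptor genes, fatty acid uptake and storage, and the lipid-associated macrophage programme. Points are genes in order of size, coloured by call, and black lines are list medians, which lie between -0.06 and 0.06. The labelled genes are those called, and the ones farthest from 0 are Hilpda at -0.76 in the lower direction and Mgll at 0.40 in the higher direction.

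In the gene families of the members no other member was called by edgeR or DESeq2. Of 7 further fatty acid binding proteins, 2 had enough counts to test, Fabp3 at 3.27 ± 1.33 and 2.97 ± 0.655 CPM and Fabp7 at 3.02 ± 1.23 and 1.68 ± 0.251 CPM, and Fabp7 had an unadjusted p of 0.0135 (adjusted p = 0.1, edgeR). Of 8 leukocyte tetraspanins, none was called and 1 had an unadjusted p under 0.05. Cd63 was at 643 ± 41.9 and 590 ± 46.0 CPM, Cd53 at 507 ± 6.61 and 500.3 ± 7.02 CPM, and Cd81 at 178 ± 21.9 and 172 ± 10.3 CPM, with overlapping groups for each.

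The genes whose pattern over the 6 libraries was most like that of Abca1 were Rab8b, a small GTPase of membrane traffic, Galnt6, a glycosyltransferase, and Ahnak, a large scaffold protein (Pearson r of log2 CPM 0.9986, 0.9986 and 0.9983). Such values were common, since 305 of the 9345 genes considered had an r of at least 0.95, and the 6 points share their libraries and the difference between groups. Rab8b went from 652 ± 31.5 to 477 ± 53.0 CPM, and Myα5KO replicate 3 was its lowest library as it was for Abca1.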

How the data were processed

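RNA from Ly6G- CD11b+ cardiac cells was sequenced as poly(A) libraries, 3 per group. Per the labels, the authors aligned reads with TopHat2 (2.0.9) to mm10 (GRCm38.p6) and counted them with HTSeq (0.6.1), and the processing notes also name Cufflinks (2.1.1). The deposited table holds raw counts per gene and FPKM values, which in each library equal the count over gene length and a constant proportional to the DESeq2 size factor. Counts were tested in R 4.3.3 with edgeR 4.0.16 (TMM factors, filterByExpr with a minimum count of 10 and total of 15, glmQLFit and glmQLFTest, Benjamini-Hochberg adjustment over 14522 genes), and all 95% intervals are those of this fit. Alternatives were DESeq2 1.42.0, other scalings and filters, limma 3.58.1 on log2(FPKM + 1) or log2(FPKM + 0.1) with or without a minimum of 1 FPKM in 3 libraries, a replicate block, a gene length correction and leaving out each library. The edgeR code was tested on simulated data.

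The 10 genes, the lists and the markers were chosen with earlier results of these data known, and list genes named in the text are all those called and up to 3 uncalled genes with the highest mean count, plus those said to be named after their values were seen. Positions are the deposited ones, which equal those of GENCODE M21 in coordinates and length for 9 of the 10 genes, all but Abcg1. Promoter sequence came from RefSeq (GRCm38.p6), with 6 of the 10 genes matched. Totals of 15424451 to 18419287 counts per library set the counting precision. Counting error (square root of the mean count) for the 10 genes ran from 0.156% to 5.7%, and was above the coefficient of variation between libraries only for Abcg1 and Nr1h3 in Myα5KO. No sample or column was left out.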

Additional observations from a re-analysis of the deposited data

How the results depend on the processing

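Abca1 kept its direction in all 16 alternatives and its call in 15. It was not called by limma on log2(FPKM + 1) with no FPKM filter (-0.66, adjusted p = 0.146), a fit that called 2 genes higher and 8 lower of 27687 in all. The counts below stand beside the calls over all genes tested, 517 higher and 754 lower of 14522 in the report. These were 411 and 759 of 12657 with DESeq2, and 798 and 940 of 27687 with no count filter. On log2(FPKM + 1) and log2(FPKM + 0.1) with a filter they were 150 and 322, and 142 and 306, of 11495. With a library left out they were 187 to 420 higher and 429 to 671 lower, of 14826 to 14903. Calls over all genes thus fell too on filtered FPKM and with a library left out. The number of the 10 genes called higher, 2 in the report, was 3 with no count filter, where Lpl was added (adjusted p = 0.00025), 1 with DESeq2, with median-ratio scaling, with at least 10 counts in every library and with the gene length correction, 0 in each of the 3 fits on FPKM, and 0 to 1 with a library left out, the 0 being without ITGA5 fl/fl replicate 2 or Myα5KO replicate 2. The number called lower, 1 in the report, was 2 with DESeq2 and with no count filter, 0 on log2(FPKM + 1) without a filter, and 1 to 2 with a library left out. For the sterol efflux list, the number higher, 0, was 2 with library-size scaling, 1 with no count filter and 0 to 1 with a library left out. For the fatty acid list, the number higher, 1, was 4 with library-size scaling, 2 with no count filter and with the length correction, 0 in the 3 fits on FPKM and 0 to 2 with a library left out, and the number lower, 3, was 4 with no count filter, 2 in both filtered fits on FPKM, 0 on log2(FPKM + 1) without a filter and 2 to 4 with a library left out. For the lipid-associated macrophage list, the number higher, 1, was 2 with library-size scaling, 3 with no count filter, 0 in the 3 fits on FPKM and 0 to 2 with a library left out, and the number lower, 0, was 1 with the length correction and 0 to 1 with a library left out. For both gene families together, the number lower, 0, was 2 with no count filter, 1 with at least 10 counts in every library, 1 with the length correction and 0 to 2 with a library left out. The fit with no count filter differed in a further way, since its prior degrees of freedom were infinite, against 9.5 in the main fit. Each gene there took the dispersion of the trend, and its own spread between libraries was not used. Apart from fewer libraries or genes in a fit and this setting, what lay behind these shifts was not tested.

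Library-size scaling moved the median log2 fold change of all genes from 0.01 to 0.10 and turned the calls over all genes from 517 higher and 754 lower to 1212 higher and 518 lower, and it set Fabp5 (0.081), Npc2 (0.0014), Ctsb (0.035), Ctsd (0.080), Cd53 (0.061), Cd81 (0.033) and Trem2 (0.065) above 0. With no count filter Fabp5 was at 0.0051 and Ctsd at 0.0061. Fabp5 was at 0.0029 on log2(FPKM + 1) with and without a filter and at 0.0030 on log2(FPKM + 0.1). Lipa was at -0.0024 with at least 10 counts in every library and at -0.0044 with the length correction. With a library left out, values that crossed 0 ranged from -0.14 to 0.19 for Fabp4, -0.12 to 0.13 for Fabp5, -0.018 to 0.086 for Cd9, -0.048 to 0.047 for Lipa, -0.012 to 0.11 for Plin2, -0.038 to 0.046 for Ctsd, -0.019 to 0.27 for Spp1, -0.35 to 0.23 for Fabp3, -0.12 to 0.055 for Cd81 and -0.093 to 0.057 for Trem2. None of these genes was called in the report.

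The labels do not say whether shared replicate numbers pair the libraries. Deviations of same-numbered libraries correlated at 0.05, -0.07 and 0.04, and those of differently numbered ones at -0.105 to 0.069. With 3 libraries per group these values cannot decide whether the libraries were paired. A replicate block gave 464 genes higher and 717 lower, set Fabp5 at 0.0078 and Ctsd at 0.00092, lost the call of Nr1h3 (0.31, adjusted p = 0.0622) and called Lpl higher (0.34, adjusted p = 0.046). Depth limits Nr1h3 most among the 10 genes, with a counting error of 5.7% in the controls and 4.79% in Myα5KO.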
